A study of Homo sapiens with 36 samples.

Results

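The clone 5 ligand comparison set HEK293 cells of a single clone given the HaloTag ligand HyT36 against the same clone given its vehicle, DMSO. It was made from the libraries labelled clone 5, which are 6 of the 36 samples of the series and 6 of its 12 bulk RNA libraries: clone 5 with HyT36 at 25 µM (3 libraries) and clone 5 with DMSO (3 libraries). The other 6 bulk libraries, clone 4 with HyT36 (3 libraries) and clone 4 with DMSO (3 libraries), shared the estimate of the spread, and the remaining 24 samples were not analysed here. HEK293 is an established human line from embryonic kidney. All cells had received a guide RNA library and a donor that writes HaloTag, an enzyme-derived tag that bonds covalently with its ligands, into endogenous genes, and per the series' design text the ligand makes the tagged product misfold. The groups therefore share the edit and differ in the ligand. The labels do not say which clone 5 protein is tagged. Exposures of 2 and 12 h appear in the protocols, without a link to the bulk cultures. Clone 5 is 1 clone, and no untagged cells were among the bulk libraries, so effects of the compound alone and effects through the tagged protein cannot be told apart.

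Cells sense misfolded protein by compartment. In the endoplasmic reticulum (ER), the sensors PERK, IRE1 and ATF6 slow translation and raise chaperone and degradation genes, and PERK shares with other kinases the integrated stress response, in which the transcription factor ATF4 raises amino acid genes and the factor CHOP. In the cytosol, the factor HSF1 raises HSP70, HSP40 and HSP90 chaperones.

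Gene counts per clone 5 library were 22853946 to 26948771, and 19548 to 20487 genes had a read. A guide named for IGF1R, the receptor of insulin-like growth factor, marked the clone: it had 2623, 2828 and 3029 reads in the HyT36 libraries, against 3072, 3806 and 3114 reads in the DMSO libraries, and 5 to 13 reads in each clone 4 library. A guide named for LRIG1, a membrane protein that restrains growth factor receptors, had 107 to 118 reads in the HyT36 libraries and 108 to 140 in the DMSO libraries. Embryonic kidney line markers summed to 1096 to 1119 CPM (counts scaled to library size) with HyT36 and 1084 to 1117 CPM with DMSO. TUBB3, NES, VIM and LIN28B carried most of these sums, while HOXD10 was at 0 and NEFL and NEFM had 0 to 3 reads in each group. Of 12 markers of differentiated kidney, 6 were at 0, among them UMOD, AQP2, SLC22A6, SLC34A1 and SCNN1G, in the clone 5 libraries. SLC12A3, a salt cotransporter gene, had 58.1 to 63.8 CPM with HyT36 and 64.9 to 68.1 CPM with DMSO, nearly all of the list's sums of 58.4 to 64.0 CPM with HyT36 and 65.2 to 68.6 CPM with DMSO.

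Transcripts of other cell types moved with the ligand groups of clone 5. The 18 epithelial carcinoma markers summed to 9.79, 8.07 and 9.08 CPM in the HyT36 libraries, against 71.2, 100.6 and 83.7 CPM in the DMSO libraries. The largest member was KRT19, a keratin of simple epithelia, which had 9 reads over the 3 HyT36 libraries and 3286 over the 3 DMSO libraries. AGR2, a secretory pathway gene of the list, had 2 reads with HyT36 and 1041 with DMSO, and GRHL2, an epithelial transcription factor gene, had 0 and 54. CDH1, which encodes E-cadherin, had 38 and 41 reads, and KRT20 was at 0 in all 6 libraries. Some breast luminal markers were on the same side. The 11 markers summed to 88.5 to 98.1 CPM with HyT36 and 116.1 to 118.4 CPM with DMSO. The secreted peptide genes TFF1 and TFF3 had 2 and 0 reads with HyT36, against 983 and 145 reads with DMSO, and the estrogen receptor gene ESR1 had 2 reads with HyT36 and 60 with DMSO. The luminal factor genes FOXA1 (log2 fold change -0.12 ± 0.13) and TRPS1 (0.12 ± 0.08) and the estrogen-responsive gene GREB1 (-0.09 ± 0.13) differed little and did not pass (edgeR adjusted p = 0.68, 0.42 and 0.79). In clone 4 the epithelial carcinoma transcripts crossed the groups, with list sums of 7.39, 82.2 and 83.2 CPM with HyT36 and 146.8, 8.04 and 7.49 CPM with DMSO. Fewer cells of a type and less RNA per cell cannot be told apart in bulk samples. Whether the epithelial and liver reads came from the cultures or from carry-over between libraries was not tested.

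Liver transcripts moved the other way in clone 5. The 13 hepatocyte markers summed to 201.6, 196.4 and 183.2 CPM with HyT36, against 140.3, 143.6 and 43.9 CPM with DMSO, and DMSO replicate 3 was the lowest. ALB, the serum albumin gene, had 41.0, 39.2 and 43.9 CPM with HyT36 and 28.2, 31.6 and 9.36 CPM with DMSO. SERPINA1, APOB, FGA, FGB and FGG, genes of secreted liver proteins, were likewise lowest in DMSO replicate 3, and AFP, the fetal liver marker, had at most 1 read in a clone 5 library. In clone 4 the list sum was 554.9 CPM in DMSO replicate 1 and 106.9 to 138.1 CPM in the other 5 libraries. Of the 12 hepatocyte markers tested, 0 passed with edgeR (1 at an unadjusted p under 0.05), and 0 with DESeq2 or limma-voom, while 4 rose with the clone 5 libraries fitted alone. With the epithelial level of each library as a covariate 4 rose and 0 fell (median log2 fold change 1.93, against 0.85 without it). Clone 4 DMSO replicate 1 had the highest sum of both the epithelial and the hepatocyte list.

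**Figure D1:**
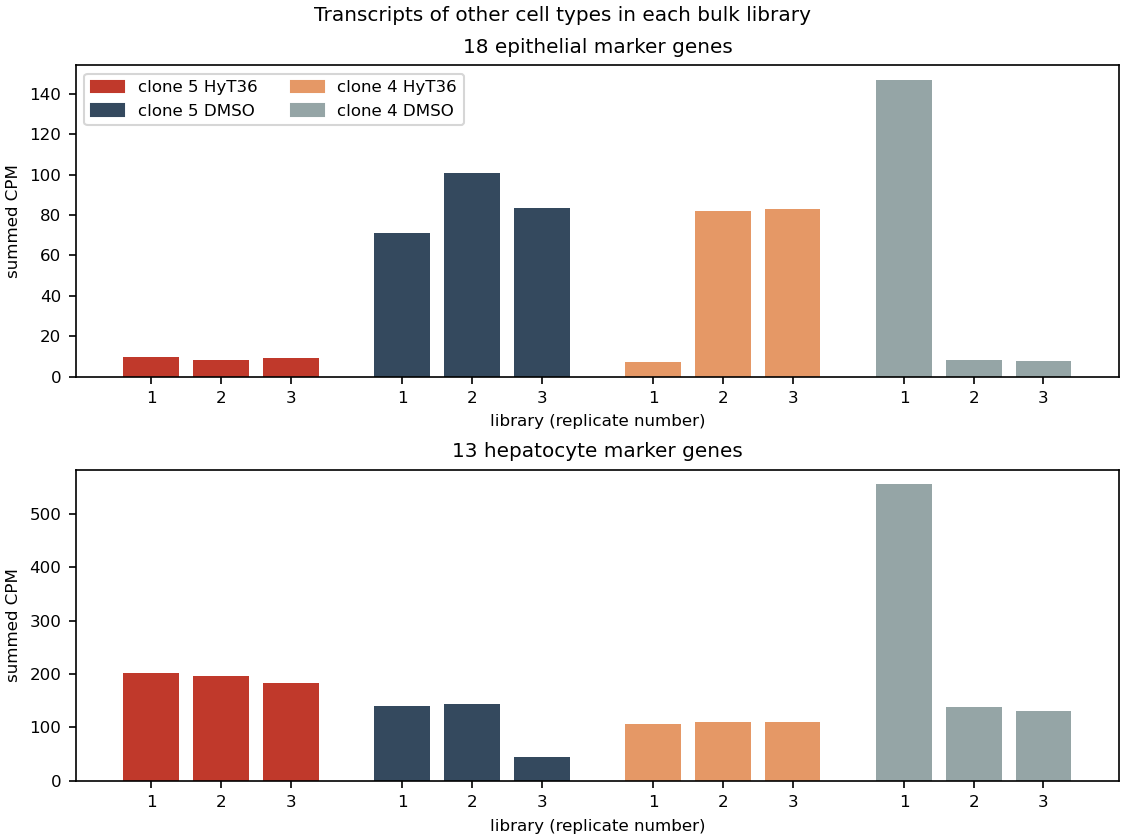
Summed CPM of the 18 epithelial carcinoma markers (upper panel) and of the 13 hepatocyte markers (lower panel), with 1 bar for each of the 12 bulk libraries and a colour for each group. The epithelial sums are 8.07 to 9.79 CPM in clone 5 with HyT36 and 71.2 to 100.6 CPM in clone 5 with DMSO, while in clone 4 high and low libraries occur in both groups.

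Many transcripts of clone 5 differed between HyT36 and DMSO, most of them by little. By edgeR, with a Benjamini-Hochberg threshold of 0.05, 499 (3.35%) of the 14892 genes tested rose and 720 (4.83%) fell, 1219 together (8.19%). The median size of the called log2 fold changes was 0.23, and 470 of the rises and 654 of the falls were within 1.5-fold. Past 2-fold were 15 rises and 35 falls (0.336% of the genes tested), but 10 of these rises and 23 of these falls concerned genes with means under 1 CPM in both groups. Past 2-fold were 157 rises and 20 falls with the epithelial level of each library as a covariate, and 27 rises and 92 falls with the clone 5 libraries fitted alone. The 3 HyT36 and the 3 DMSO libraries did not overlap for 3743 genes (25.1%), and for 1189 of the 1219 called. Among called genes whose clone 5 libraries averaged a log2 CPM of 1 or more and whose groups were separate, the largest rises were those of CHAC1 and DDIT4, and the largest fall was that of TXNIP.

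The count moved with the libraries and the scaling used. Without DMSO replicate 1 it was 756 genes. Without scaling beyond library size 28.5% of the called genes rose, against 40.9% here, 48.8% with RLE scaling, 50.9% with DESeq2 and 49.6% without the filter on low counts. With the 6 clone 5 libraries fitted alone 1433 of 14166 genes (10.1%) passed, 655 up (4.62%) and 778 down (5.49%), among them 488 of the 499 rises and 661 of the 720 falls. With the epithelial level of each library as a covariate 970 genes (6.51%) passed, 464 up (3.12%) and 506 down (3.4%), among them 253 of the 499 rises and 420 of the 720 falls. All 1219 called genes kept their sign in that fit. The covariate is informed by clone 4, since within clone 5 it coincides with the ligand. In that fit 327 genes (2.2%) were higher in libraries with epithelial transcripts, and 11 of the 720 falls and 0 of the 499 rises were among them. Such genes also vary within the clone 4 groups, and that spread enters the fit without the covariate and makes a call there less likely. The overlap of 11 and 0 therefore cannot show how many calls move with the epithelial transcripts. KRT19 had a fitted log2 fold change of -8.29 ± 3.16 (SE) and did not pass (edgeR adjusted p = 0.18), and with the clone 5 libraries fitted alone it passed (edgeR adjusted p = 0.0014). Its spread within the clone 4 groups enters the first of these fits and not the second.

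**Figure D2:**
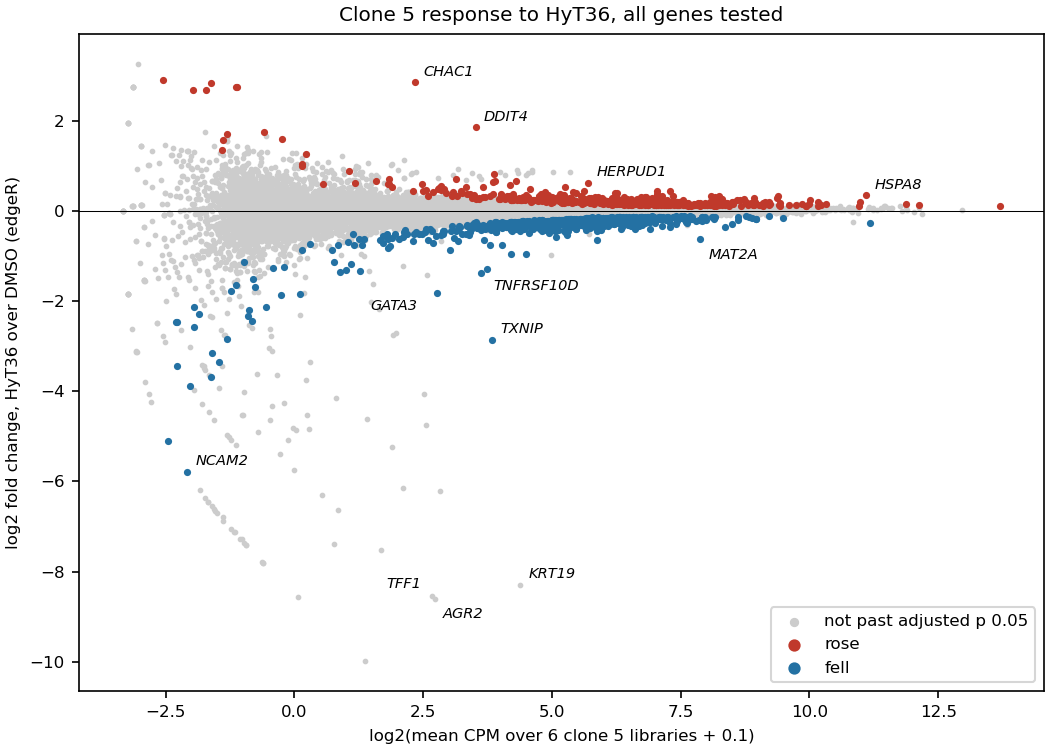
Log2 fold change of HyT36 over DMSO in clone 5 (edgeR) against the log2 mean CPM over the 6 clone 5 libraries, 1 point per gene tested, with the 499 rises in red, the 720 falls in blue and all other genes in grey. Most called genes lie close to 0, CHAC1 stands out above at 2.86 and TXNIP below at -2.86, and the epithelial genes KRT19, AGR2 and TFF1 lie far below in grey.

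Integrated stress response genes led the rises. CHAC1, an enzyme that degrades glutathione and is raised by ATF4 (ENSG00000128965, chromosome 15, 40953471 to 40956512, GRCh38.p14), had 9.96, 7.81 and 8.31 CPM in the HyT36 libraries, against 1.08, 1.25 and 1.24 CPM in the DMSO libraries. Every HyT36 library lay above every DMSO library, and the means differed 7.30-fold (log2 fold change 2.86 ± 0.13, SE; edgeR adjusted p = 1.8e-19). DDIT4, an inhibitor of the growth kinase complex mTORC1 (chromosome 10, 72273924 to 72276036), had 18.4, 17.2 and 17.7 CPM with HyT36, against 5.83, 4.56 and 4.37 CPM with DMSO (log2 fold change 1.86 ± 0.20, edgeR adjusted p = 4.4e-04). The stress factor gene ATF3 (chromosome 1, 212565407 to 212620777) had 23.3, 26.4 and 22.3 CPM with HyT36, against 15.4, 14.3 and 15.6 CPM with DMSO (0.67 ± 0.08, edgeR adjusted p = 3.5e-07). The groups did not overlap for either gene. For these genes and CHAC1, separate groups were a condition for being named among the 12 largest rises.

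Of 47 PERK and ATF4 targets tested, 14 rose, 0 fell and 33 did not pass, with a median log2 fold change of 0.08 beside -0.00 over all genes tested. The rises were CHAC1, SLC3A2, ATF3, SLC38A2, STC2, EPRS1, DDIT4, MTHFD2, AARS1, SLC7A11, DDIT3, ASNS, ATF4 and PHGDH. Several of them handle amino acids: SLC3A2, a subunit of amino acid transporters, averaged 339.6 ± 11.6 CPM with HyT36 and 269.9 ± 3.56 CPM with DMSO (SD, n = 3 each), and SLC38A2, a neutral amino acid transporter, 156.1 ± 6.44 and 123.8 ± 5.00 CPM in the same order. DDIT3, which encodes CHOP, had 2.47, 2.65 and 2.63 CPM with HyT36, against 1.29, 1.62 and 1.28 CPM with DMSO (0.88 ± 0.23, edgeR adjusted p = 0.012). Its call was lost without DMSO replicate 1 or 3 (edgeR adjusted p = 0.061 and 0.052) and with the epithelial covariate (0.37), under which 7 of the list rose. ATF4 mRNA rose slightly (log2 fold change 0.17 ± 0.05, edgeR adjusted p = 0.039), a call lost with the covariate (0.14) and without HyT36 replicate 1, DMSO replicate 1 or 3, or clone 4 DMSO replicate 1 or HyT36 replicate 2 (0.050 to 0.18). TRIB3, a pseudokinase gene downstream of CHOP, averaged 42.2 ± 1.46 CPM with HyT36 and 46.8 ± 2.35 CPM with DMSO (SD, n = 3 each) and did not pass (-0.15 ± 0.06, edgeR adjusted p = 0.092).

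**Figure D3:**
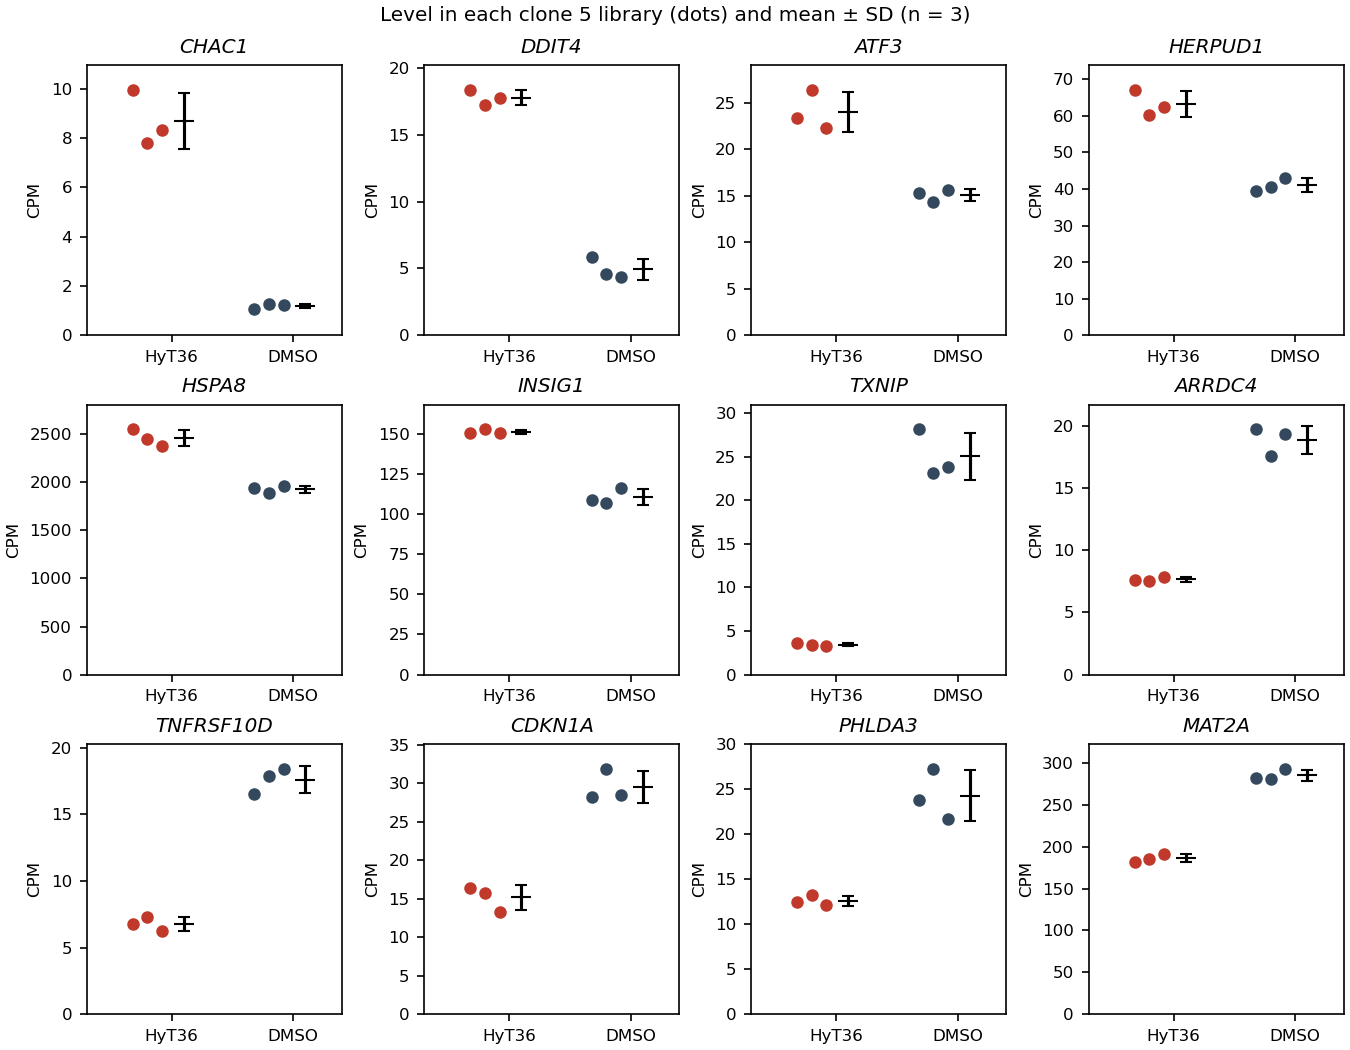
CPM in each clone 5 library (dots) with the mean and SD of each group (n = 3) for CHAC1, DDIT4, ATF3, HERPUD1, HSPA8, INSIG1, TXNIP, ARRDC4, TNFRSF10D, CDKN1A, PHLDA3 and MAT2A. The 3 libraries with HyT36 and the 3 with DMSO do not overlap in any panel: the first 6 genes are higher with HyT36, and the other 6 are lower. Separate groups were a condition for naming those among the 12 largest rises and falls.

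ER stress genes rose in part. HERPUD1, which helps remove misfolded proteins from the ER membrane (chromosome 16, 56932142 to 56944864), had 67.2, 60.3 and 62.4 CPM with HyT36, against 39.4, 40.5 and 43.1 CPM with DMSO (0.63 ± 0.05, edgeR adjusted p = 3.6e-11). DNAJB9, an ER co-chaperone, had 18.2, 18.5 and 18.1 CPM with HyT36, against 11.2, 11.3 and 12.1 CPM with DMSO (0.67 ± 0.09, edgeR adjusted p = 6.5e-07). Both genes were without overlap between the groups, a condition for being named among the 12 largest rises. HSPA5, the main ER chaperone gene, had 921.6, 895.5 and 876.0 CPM with HyT36, against 811.1, 809.8 and 831.3 CPM with DMSO (0.14 ± 0.03, edgeR adjusted p = 0.0095), and did not pass without HyT36 replicate 1 or DMSO replicate 2 (0.051 each). Of 41 ATF6 and XBP1 targets tested, 6 rose and 1 fell, with a median of 0.07. The other rises were HSPA13, HYOU1 and PDIA4, and the fall was DNAJC3, a co-chaperone that restrains PERK (-0.23 ± 0.05), whose call was lost with the covariate (edgeR adjusted p = 0.18). XBP1 itself, the target of IRE1, averaged 130.9 ± 3.66 CPM with HyT36 and 131.0 ± 4.73 CPM with DMSO (SD, n = 3 each; -0.00 ± 0.04, edgeR adjusted p = 0.99).

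The promoters of CHAC1, HERPUD1, HSPA8 and TXNIP are shown because each was called in its group (ATF4, ER, heat shock or glucose-linked) and holds a match to a motif of that pathway. Each run is the 250 bases before the start in RefSeq's promoter table (GRCh38.p14), 5′ to 3′ on the gene's strand. For HSPA8 that start lies inside the gene span given for it, so its run lies within the span. Capitals mark matches, searched on both strands, to the amino acid response element TGATGNAA in CHAC1 and HERPUD1, the ER stress element II in HERPUD1, the heat shock element in HSPA8 and the carbohydrate response element in TXNIP.
CHAC1, chr15:40953221-40953470, plus strand: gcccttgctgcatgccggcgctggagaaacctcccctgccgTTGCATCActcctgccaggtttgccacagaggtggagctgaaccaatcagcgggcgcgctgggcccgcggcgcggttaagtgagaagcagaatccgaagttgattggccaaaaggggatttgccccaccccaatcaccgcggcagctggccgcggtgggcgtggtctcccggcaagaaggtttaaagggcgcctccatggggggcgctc
HERPUD1, chr16:56931892-56932141, plus strand: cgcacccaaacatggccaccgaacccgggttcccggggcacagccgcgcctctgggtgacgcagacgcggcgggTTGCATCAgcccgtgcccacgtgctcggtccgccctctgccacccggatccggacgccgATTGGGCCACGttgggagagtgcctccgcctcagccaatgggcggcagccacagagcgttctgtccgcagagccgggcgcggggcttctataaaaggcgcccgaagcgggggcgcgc
HSPA8, chr11:123062137-123062386, minus strand: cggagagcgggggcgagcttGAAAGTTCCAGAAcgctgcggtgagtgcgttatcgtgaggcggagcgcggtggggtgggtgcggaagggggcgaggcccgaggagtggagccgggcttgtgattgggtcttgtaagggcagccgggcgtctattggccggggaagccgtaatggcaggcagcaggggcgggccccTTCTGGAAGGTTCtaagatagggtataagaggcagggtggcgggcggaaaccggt
TXNIP, chr1:145996580-145996829, minus strand: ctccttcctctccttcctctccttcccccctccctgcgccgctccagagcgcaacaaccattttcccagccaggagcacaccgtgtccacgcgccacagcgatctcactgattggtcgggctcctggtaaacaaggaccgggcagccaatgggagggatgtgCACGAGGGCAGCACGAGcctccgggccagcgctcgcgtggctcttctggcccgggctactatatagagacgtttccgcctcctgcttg
In CHAC1 the match lies 209 to 202 bases before the start. HERPUD1 holds matches at 176 to 169 and at 117 to 107 bases, HSPA8 at 230 to 218 and at 55 to 43, and TXNIP at 88 to 72. Among the 11363 tested genes with a promoter in the table, TGATGNAA occurred in 1.43% of promoters, in 12 of 429 genes that rose (2.8%) and in 5 of 583 that fell (0.858%). The 12 included AARS1, ASNS, ATF3, CHAC1, GADD45G and HERPUD1. The ER stress element II occurred in 10 tested promoters (0.088%), among them HERPUD1 and HYOU1, which rose (0.466% of the 429), and RAD9A, which fell (0.172% of the 583). The longer ER stress element occurred in 14 (0.123%), among them HSPA5 and FICD, which rose (0.466% of the 429), and 0 fell. The heat shock element occurred in 32 tested promoters (0.282%), of which HSPA8 rose (0.233% of the 429) and 4 fell (0.686% of the 583). The carbohydrate element occurred in 13 (0.114%), of which 0 rose and TXNIP and KCTD5 fell (0.343% of the 583). A match is a run of letters and does not show a bound site.

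Some cytosolic chaperone genes of the HSF1 group rose modestly. HSPA8, the constitutive HSP70 (ENSG00000109971, chromosome 11, 123057489 to 123062462), had 2549, 2445 and 2380 CPM with HyT36, against 1935, 1884 and 1958 CPM with DMSO (0.35 ± 0.03, edgeR adjusted p = 3.0e-09). HSPA1B, an inducible HSP70, had 48.0, 41.6 and 44.4 CPM with HyT36, against 30.4, 29.3 and 33.6 CPM with DMSO (0.52 ± 0.06). Its reads cannot be separated with certainty from those of the near-identical HSPA1A. The HSP40 co-chaperone gene DNAJB4 had 27.3, 27.4 and 28.8 CPM with HyT36, against 19.9, 19.8 and 19.5 CPM with DMSO (0.49 ± 0.07, edgeR adjusted p = 2.0e-06). Each of these genes was higher in every HyT36 library than in every DMSO library. Of 33 HSF1 targets tested, 7 rose, 2 fell and 24 did not pass (median 0.05), the rises also including DNAJB1, HSPA1A and HSP90AB1, and the falls being DNAJB2 and DNAJB6. With the epithelial covariate 6 rose and 1 fell.

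Some genes of sterol and fatty acid synthesis also rose. INSIG1, an ER protein that holds the factor SREBP back when sterol is plentiful (chromosome 7, 155297878 to 155310235), had 150.1, 152.7 and 150.3 CPM with HyT36, against 108.6, 107.1 and 116.0 CPM with DMSO (0.45 ± 0.04, edgeR adjusted p = 2.5e-10). MSMO1, a sterol demethylation enzyme, had 163.5, 188.6 and 184.8 CPM with HyT36, against 132.7, 127.6 and 136.8 CPM with DMSO (0.43 ± 0.05). Of 35 SREBP targets tested, 10 rose, 1 (SC5D) fell and 24 did not pass, with a median of 0.03, and with the covariate 8 rose and 0 fell. The rises also included the fatty acid synthesis genes FASN, ACACA and ACLY and the sterol synthesis genes HMGCS1, SQLE and FDFT1.

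Some targets of the tumour suppressor p53 and death receptor genes were lower. TNFRSF10D, a decoy receptor for the death ligand TRAIL that is not on the p53 list (ENSG00000173530, chromosome 8, 23135588 to 23164027), had 6.74, 7.29 and 6.24 CPM with HyT36, against 16.5, 17.9 and 18.4 CPM with DMSO (-1.39 ± 0.09, edgeR adjusted p = 3.1e-15). CDKN1A, which encodes the cell cycle inhibitor p21 (chromosome 6, 36676463 to 36687332), had 16.4, 15.8 and 13.3 CPM with HyT36, against 28.2, 31.9 and 28.4 CPM with DMSO (-0.96 ± 0.16, edgeR adjusted p = 0.0061). PHLDA3, which blunts AKT signalling, had 12.4, 13.2 and 12.1 CPM with HyT36, against 23.9, 27.3 and 21.7 CPM with DMSO (-0.95 ± 0.11). None of these 3 genes overlapped between the groups, a condition for being named among the 12 largest falls. Of 28 p53 targets tested, 0 rose, 14 fell and 14 did not pass, with a median of -0.20, and 12 fell with the covariate. The falls included the death receptor genes FAS (-0.78 ± 0.16) and TNFRSF10B (-0.32 ± 0.04), the glycolysis regulator TIGAR (-0.29 ± 0.05), GADD45A, a DNA damage response gene (-0.60 ± 0.11), and the apoptosis modulator TRIAP1 (-0.34 ± 0.05). MDM2, the ubiquitin ligase that degrades p53, fell by 0.18 on the log2 scale (SE 0.05, edgeR adjusted p = 0.0089), but did not pass without HyT36 replicate 1 or 3 or DMSO replicate 2 (0.11, 0.088 and 0.059). Within the BCL2 family 2 of 19 tested genes fell and 0 rose, beside 4.83% falls and 3.35% rises over all genes tested. The 2 falls were those of the death effector gene BAK1 (-0.34 ± 0.05) and the survival gene MCL1 (-0.20 ± 0.04).

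The glucose-linked targets of MondoA and ChREBP included the largest of these falls. TXNIP, an arrestin-domain protein that limits glucose uptake (ENSG00000265972, chromosome 1, 145992435 to 145996579), had 3.60, 3.43 and 3.31 CPM with HyT36, against 28.1, 23.1 and 23.9 CPM with DMSO. The groups lay far apart, 7.27-fold lower with HyT36 (-2.86 ± 0.46, edgeR adjusted p = 0.0066). In clone 4 it had 6.78, 15.8 and 15.7 CPM with HyT36 and 27.2, 11.8 and 12.4 CPM with DMSO, so the libraries with high epithelial sums were the higher ones of each clone 4 group. With the epithelial covariate the log2 fold change of TXNIP in clone 5 was -1.92 (edgeR adjusted p = 1.2e-13). The slope of TXNIP on the epithelial level also passed in that fit (edgeR adjusted p = 4.2e-12). ARRDC4, its close relative (chromosome 15, 97960703 to 97973833), had 7.57, 7.51 and 7.89 CPM with HyT36, against 19.7, 17.6 and 19.3 CPM with DMSO (-1.30 ± 0.10, and -1.20 with the covariate). KLF10, a repressor gene, had 10.2, 10.0 and 10.4 CPM with HyT36, against 16.5, 17.2 and 18.4 CPM with DMSO (-0.76 ± 0.08). Of 8 targets tested 4 fell, PFKFB3 being the other (its call was lost without HyT36 replicate 3 or DMSO replicate 2, at edgeR adjusted p = 0.053 and 0.065), and ARRDC3 rose (0.44 ± 0.06).

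Some immediate early genes and ERK feedback genes fell. Of 36 immediate early genes tested, 2 rose (ATF3 and KLF6), 12 fell and 22 did not pass (median -0.24). The AP-1 subunit gene FOSL1 averaged 19.3 ± 1.14 CPM with HyT36 and 27.4 ± 0.521 CPM with DMSO (SD, n = 3 each; log2 fold change -0.50 ± 0.07, edgeR adjusted p = 8.9e-06). BTG2, an antiproliferative gene, averaged 49.5 ± 0.827 CPM with HyT36 and 67.9 ± 5.67 CPM with DMSO (SD, n = 3 each). Of 18 ERK feedback genes 6 fell, 0 rose and 12 did not pass (median -0.35), among them SPRY1, an inhibitor of receptor signalling, with 1.55, 1.69 and 2.08 CPM with HyT36, against 3.25, 3.13 and 2.70 CPM with DMSO (-0.77 ± 0.18, edgeR adjusted p = 0.0042). Of 22 YAP and TEAD targets 7 fell and 0 rose (median -0.21), among them the matricellular gene CCN2, with 7.95, 8.81 and 8.82 CPM with HyT36, against 12.8, 10.9 and 13.5 CPM with DMSO (-0.54 ± 0.10), and the adaptor gene AJUBA (-0.31 ± 0.05). These lists share genes: FOSL1, IER3, DUSP5 and MYC count in both of the first, and CCN1 and CCN2 in the first and the last. The call of MYC (edgeR adjusted p = 0.038) was lost with RLE scaling, DESeq2 and limma-voom and without the filter on low counts. It was also lost without HyT36 replicate 2 or 3, DMSO replicate 1 or 2, and some clone 4 libraries. Some of the falls also count in lists given above. These are BTG2 and GADD45A (p53 targets), KLF10 (MondoA and ChREBP targets) and MCL1 (BCL2 family). With the covariate 10, 5 and 6 members of the 3 lists fell and 3, 0 and 1 rose, and the median of the YAP and TEAD targets was -0.01.

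Growth factor receptor genes were described because the clone's guide is named for one. IGF1R mRNA (chromosome 15, 98648539 to 98964530) had 40.0, 44.4 and 42.4 CPM with HyT36, against 38.1, 40.0 and 36.9 CPM with DMSO, and did not pass (0.14 ± 0.06, edgeR adjusted p = 0.12). LRIG1 averaged 9.54 ± 1.08 CPM with HyT36 and 9.21 ± 2.00 CPM with DMSO (SD, n = 3 each; 0.06 ± 0.12, edgeR adjusted p = 0.85). Of 36 FOXO and insulin signalling genes tested, 10 rose and 3 fell (median 0.09), and with the covariate 8 rose and 1 fell. CCNG2, a cyclin raised when growth signals fall, averaged 21.5 ± 0.550 CPM with HyT36 and 14.5 ± 0.968 CPM with DMSO (SD, n = 3 each; log2 fold change 0.56 ± 0.08, edgeR adjusted p = 1.2e-05). The receptor gene IGF2R rose by 0.21 ± 0.04 and BCL6, a repressor, by 0.71 ± 0.17 on the log2 scale, and INSR, MTOR and FOXO3 were also among the rises, while PIK3R1, TXNIP and TRIB1 fell. Of 13 glucocorticoid-responsive genes 4 rose and 0 fell, namely the metallothionein genes MT2A and MT1X, the kinase gene SGK1 (0.37 ± 0.08) and TSC22D3 (0.31 ± 0.08). The call of TSC22D3 was lost without HyT36 replicate 1, DMSO replicate 2 or DMSO replicate 3 (edgeR adjusted p = 0.059 to 0.065) and with the covariate (0.21). MT1X did not pass with the covariate either (edgeR adjusted p = 0.13), and 5 of the list rose and 0 fell in that fit.

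Some nucleolar and MYC-linked genes were lower, while cell cycle genes were called in both directions. Of 41 ribosome biogenesis and MYC-linked genes 11 fell and 3 rose, and 14 fell and 1 rose with the covariate. The assembly factor gene RRS1 had 91.0, 85.0 and 85.1 CPM with HyT36, against 108.5, 107.9 and 108.3 CPM with DMSO (-0.31 ± 0.04, edgeR adjusted p = 1.8e-06), and NOP56, a component of RNA-modifying particles, fell by 0.21 on the log2 scale (SE 0.04). Ribosomal protein genes had 1 fall among 76, that of RPS10, at low means of 1.25 CPM with HyT36 and 2.12 CPM with DMSO (88 and 168 reads). RPS10 did not pass without HyT36 replicate 1 or 3 or DMSO replicate 2 or 3 (edgeR adjusted p = 0.051 to 0.23). Of 34 G1/S and replication genes 2 rose and 3 fell (median 0.003), beside 3.35% rises and 4.83% falls over all genes tested. The cyclin gene CCNE1 was among the falls (-0.35 ± 0.06). Of 38 G2/M genes 2 rose and 3 fell (median 0.003), among them the topoisomerase gene TOP2A (0.17 ± 0.04), the mitotic kinesin gene KIF23 (-0.20 ± 0.04) and the mitotic kinase gene AURKA (-0.18 ± 0.04).

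Protein removal genes were called in both directions, beside 3.35% rises and 4.83% falls over all genes tested. Of 40 proteasome genes 2 rose and 1 fell: PSME4, an activator subunit, rose by 0.19 ± 0.04 on the log2 scale, the assembly factor PSMG3 fell by 0.21 (SE 0.05), and PSMD2 rose by 0.12 ± 0.04, a call lost with the covariate (edgeR adjusted p = 0.39) and without HyT36 replicate 1 or 2, DMSO replicate 1 or 2 or any clone 4 HyT36 library (0.051 to 0.27). Of 33 ER-associated degradation and ubiquitin genes HERPUD1 rose and 5 fell, led by UBL4A, which works in membrane protein insertion (-0.30 ± 0.04, edgeR adjusted p = 1.9e-06), and the ubiquitin-conjugating enzyme gene UBE2G2 (-0.23 ± 0.04). Among 21 mitochondrial chaperones and proteases 2 rose and 2 fell, the fall with the smallest p being that of GRPEL1, a partner of mitochondrial HSP70 (-0.33 ± 0.04). Of 26 NRF2 targets 2 rose and 1 fell, and HMOX1, the heme oxygenase gene (0.13 ± 0.12), and SQSTM1, the autophagy receptor gene (0.12 ± 0.09), did not pass (edgeR adjusted p = 0.62 and 0.54).

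**Figure D4:**
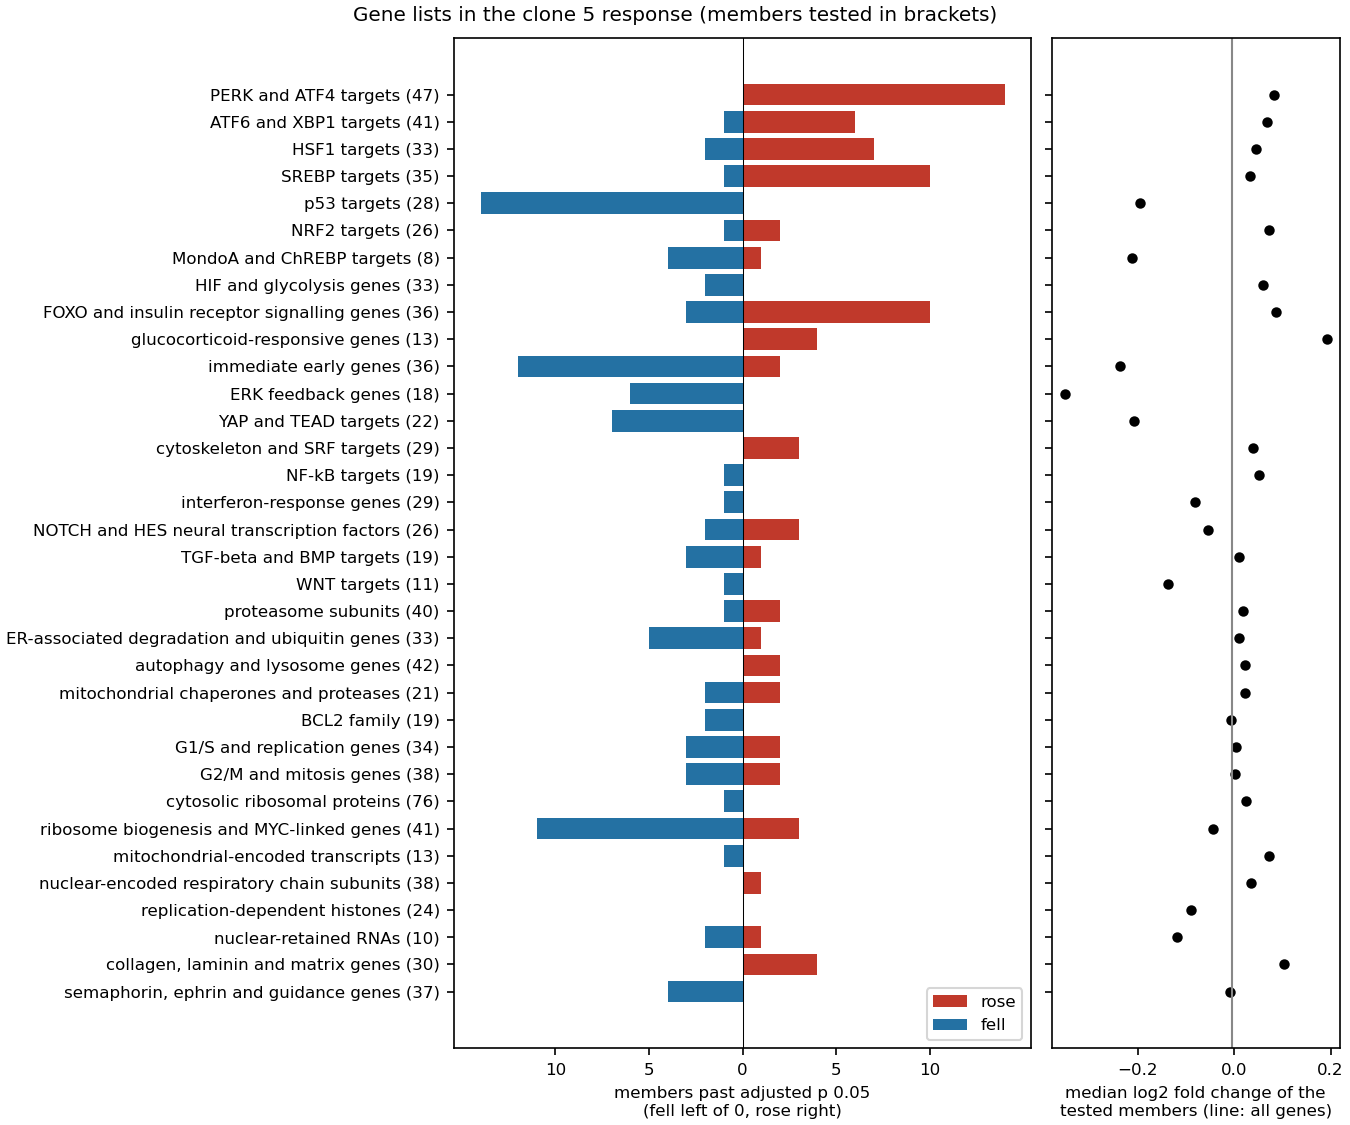
Number of tested members of each gene list that rose (to the right) or fell (to the left) in clone 5 with HyT36 over DMSO by edgeR at an adjusted p under 0.05, with the number tested in brackets after the list name (left panel), and the median log2 fold change of the tested members, with a line at the median of all genes tested (right panel). The PERK and ATF4 targets show 14 rises and 0 falls among 47, the p53 targets 0 rises and 14 falls among 28, against 3.35% rises and 4.83% falls over all genes tested.

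Some matrix genes rose, and developmental genes were called in both directions, beside 3.35% rises and 4.83% falls over all genes tested. Of 30 collagen, laminin and matrix genes 4 rose and 0 fell. Among the rises, the call of COL18A1 was lost without HyT36 replicate 1 or 2 or DMSO replicate 1. COL1A2, with means of 1.12 CPM with HyT36 and 0.37 CPM with DMSO, lost its call with limma-voom and on leaving out any 1 clone 5 library. FBN2, a microfibril protein, had 412.7, 425.7 and 410.1 CPM with HyT36, against 335.1, 354.5 and 374.5 CPM with DMSO (0.23 ± 0.04, edgeR adjusted p = 4.8e-05). LAMC1, a laminin subunit, rose by 0.20 ± 0.04 on the log2 scale. The actin crosslinker gene FLNA, which is not on the matrix list, rose by 0.19 ± 0.03. PDGFRA, a receptor of mesenchymal cells, had 58.6, 59.2 and 60.7 CPM with HyT36, against 50.5, 49.2 and 49.8 CPM with DMSO (0.26 ± 0.05). The 15 fibroblast and mesenchymal markers, 2 of which (DCN and FAP) were at 0, summed to 83.0 to 85.1 CPM with HyT36 and 68.2 to 73.1 CPM with DMSO. PDGFRA is on that list and made up most of these sums. The part of these markers in the matrix rises was not tested. NEUROG2, a neurogenic transcription factor, had 19.4, 18.1 and 17.8 CPM with HyT36, against 11.7, 10.5 and 9.47 CPM with DMSO (0.81 ± 0.09, edgeR adjusted p = 3.8e-08). Among 26 NOTCH and neural factor genes 3 rose and 2 fell (median -0.05). JAG1, a NOTCH ligand, rose by 0.34 ± 0.05 on the log2 scale, and NRARP, a NOTCH feedback inhibitor, fell by 0.38 (SE 0.07).

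Other genes had small p-values or large fold changes without belonging to a list. MAT2A, which makes S-adenosylmethionine (ENSG00000168906, chromosome 2, 85539168 to 85545281), had 181.9, 185.4 and 191.7 CPM with HyT36, against 281.8, 281.0 and 292.9 CPM with DMSO (-0.61 ± 0.04, edgeR adjusted p = 3.1e-15). FAM13B had 12.3, 11.9 and 12.0 CPM with HyT36, against 21.1, 20.5 and 19.9 CPM with DMSO (-0.76 ± 0.07), and CCDC137 45.7, 45.0 and 46.2 CPM, against 68.5, 75.8 and 68.9 CPM (-0.64 ± 0.06). All 3 lay lower in every HyT36 library than in every DMSO library. GADD45G, a stress-induced growth inhibitor, averaged 10.8 ± 0.871 CPM with HyT36 and 6.65 ± 0.672 CPM with DMSO (SD, n = 3 each), and KLHL24, an adaptor of a ubiquitin ligase, 17.6 ± 0.619 and 11.2 ± 0.350 CPM in the same order. C1orf109 fell by 0.54 on the log2 scale (SE 0.06).

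Some large falls changed with the epithelial covariate. GATA3, a transcription factor of breast epithelium among other tissues, had 2.68, 2.47 and 3.78 CPM with HyT36, against 9.45, 11.4 and 10.8 CPM with DMSO (-1.83 ± 0.44, edgeR adjusted p = 0.040). In clone 4 its libraries with high epithelial sums had 16.7 to 20.2 CPM and the others 9.01 to 9.53 CPM. With the covariate its log2 fold change was -0.97 (edgeR adjusted p = 1.8e-05), and leaving out any 1 of the 6 clone 5 libraries, or HyT36 replicate 2 or 3 of clone 4, gave an adjusted p of 0.053 to 0.13. SCUBE2 (-1.34), NEBL (-1.18), PLK2 (-0.88) and EFNA1 (-0.83) passed, and with the covariate they did not (edgeR adjusted p = 0.42, 0.14, 0.29 and 0.53). The slope on the epithelial level passed for GATA3, SCUBE2 and PLK2 (edgeR adjusted p = 3.8e-11, 1.9e-04 and 8.0e-04) and did not for NEBL and EFNA1 (0.097 and 0.086). SCUBE2 also did not pass without any 1 clone 5 library, clone 4 HyT36 replicate 3 or clone 4 DMSO replicate 2 (edgeR adjusted p = 0.054 to 0.17), PLK2 without HyT36 replicate 2 or 3 or DMSO replicate 1 or 2 (0.061 to 0.064), and EFNA1 without HyT36 replicate 1 or 2 or DMSO replicate 1 (0.064 to 0.090). CLDN7, a tight junction gene, did not pass (-0.33 ± 0.48) and had the opposite sign with the covariate (1.10, edgeR adjusted p = 0.016). At the lowest levels, NCAM2, an adhesion gene, had 0 reads over the HyT36 libraries and 21 over the DMSO libraries, and SEMA3D, a guidance cue, 3 and 22. SEMA3D did not pass without HyT36 replicate 3 or DMSO replicate 3 (edgeR adjusted p = 0.059 and 0.11).

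For single genes the response of clone 5 was set against that of clone 4 by a test of the difference, and 45 of 14892 genes (0.302%) passed that test. CHAC1 rose less in clone 5 (log2 fold change 2.86) than in clone 4 (3.82), a difference of -0.96 ± 0.18 (edgeR adjusted p = 0.0060). HERPUD1 (0.63 in clone 5 and 1.06 in clone 4), DNAJB1 (0.30 and 0.76), TSC22D3 (0.31 and 1.04) and XBP1 (-0.00 and 0.58) also had smaller responses in clone 5. TNFRSF10D (-1.39 in clone 5 and -0.70 in clone 4) and MAT2A (-0.61 and -0.31) fell further in clone 5. DDIT4 (1.86 in clone 5 and 3.59 in clone 4) and TXNIP (-2.86 and -0.43) did not pass the test of the difference (edgeR adjusted p = 0.054 and 0.28).

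Genes that rose had longer spans on median than genes that fell. Span is the distance between a gene's ends in RefSeq (GRCh38.p14), taken for protein-coding genes. Its median was 31.3 kb over 12898 genes tested, 89.8 kb over 493 of the 499 rises and 19.6 kb over 692 of the 720 falls. In the longest decile (166 to 2299 kb) 116 genes rose and 13 fell, and in the shortest decile (0.276 to 5.34 kb) 22 rose and 83 fell. The median log2 fold change was 0.08 in the longest decile and -0.03 in the shortest. With the epithelial covariate the medians were 74.5 kb for rises and 17.0 kb for falls, and for the clone 4 response, in which 830 genes passed (5.57%), 329 up (2.21%) and 501 down (3.36%), they were 33.8 and 20.6 kb. The difference in span between the clones was not tested. By library, the mean deviation of the longest decile minus that of the shortest, on the log2(CPM + 1) scale relative to the clone 5 mean, was 0.03, 0.11 and 0.01 with HyT36 and -0.11, -0.05 and 0.00 with DMSO. The groups did not overlap, HyT36 replicate 2 and DMSO replicate 1 lay farthest apart, and replicate 3 of each group lay close to the other. The part of RNA quality or library preparation in this shift was not tested.

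**Figure D5:**
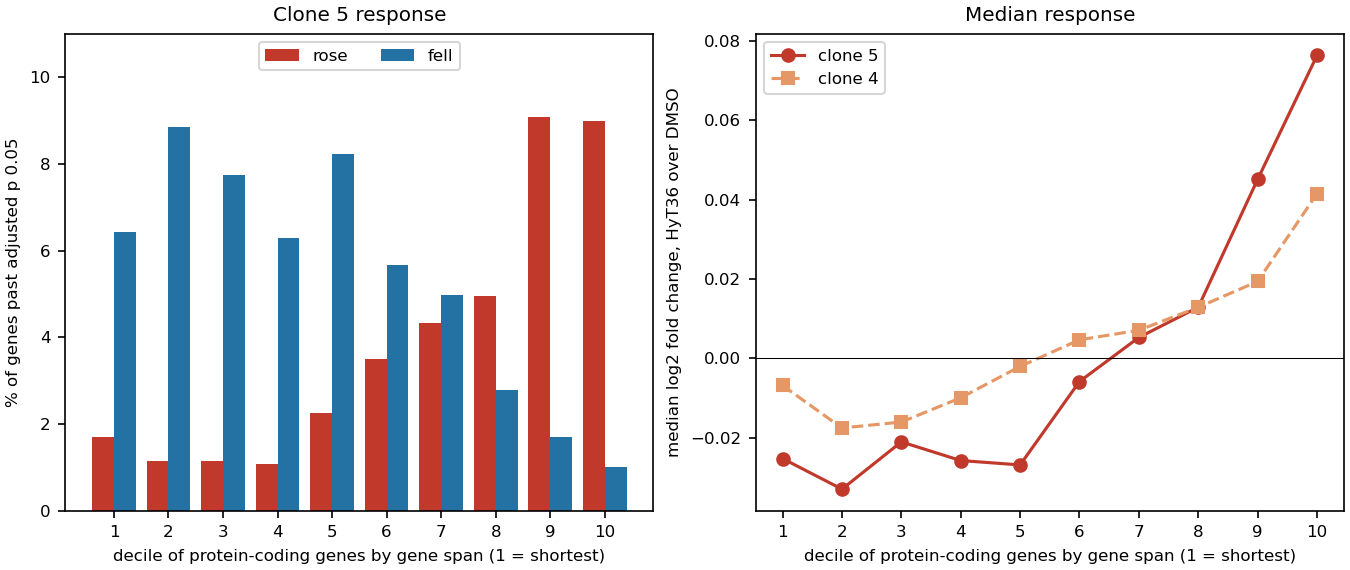
Percent of protein-coding genes that rose or fell in clone 5 with HyT36 over DMSO in each decile of gene span (left), and the median log2 fold change in each decile for clone 5 and clone 4 (right). In the longest decile 8.99% of genes rose and 1.01% fell, and in the shortest 1.71% rose and 6.43% fell, and the difference between the clones was not tested.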

How the data were processed

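Bulk polyA-selected RNA was sequenced after library preparation with a NEBNext Ultra II kit, per the labels. The authors deposited a table of raw counts per gene and guide, not normalized, per the file headers. Per the submitters' processing notes the build is GRCh38 and Cell Ranger 7 was used, without saying on which libraries. No aligner, annotation or strand setting for the bulk data is given in the labels, so overlapping, antisense and near-identical genes may share reads. Of 36601 gene rows, 36366 matched the symbol table. The 4 summary entries, and the guide features (at most 0.0125% of a clone 5 library), entered neither library sizes nor tests, and gene counts were 82.4 to 83.4% of a clone 5 library. A gene at 1 CPM therefore rested on more than 20 reads.

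Counts were tested with edgeR 4.0.16 (R 4.3.3): filterByExpr by group, TMM scaling, a mean for each of the 4 groups over 12 libraries, and the two-sided robust quasi-likelihood F-test with Benjamini-Hochberg adjustment over all genes tested (threshold 0.05). The prior count was 0.125, and each SE is approximate, the absolute log2 fold change over the root of F. CPM are TMM-scaled. DESeq2 1.42.0, limma-voom 3.58.1 and other scalings, filters, covariates and libraries were alternatives, and the code was tested on simulated data. The genes named take the 12 largest rises and falls among genes past the threshold with mean log2 CPM at or above 1 and no overlap, the 10 smallest p, up to 4 called members of each gene list, and genes chosen by name. Cell type marker genes, list members given by symbol and motif-bearing genes were named after their values were seen. Some genes that the rule names are among those not reported here. Members and lists were chosen with earlier results of these data known, so no set test was made. Whether replicates were separate cultures is not stated, so p-values cover the spread between these libraries alone, which may be technical. Replicates differed by more than sampling noise (chi-square per degree of freedom 2.84 to 4.52).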

Additional observations from a re-analysis of the deposited data

Results flagged for a closer look

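Each of the following genes responded differently to HyT36 in clone 5 and clone 4 by the edgeR test of the difference, given as clone 5 minus clone 4 on the log2 scale with its Benjamini-Hochberg adjusted p. For ER and cytosolic stress genes the difference was -0.58 for XBP1 (edgeR adjusted p = 6.9e-09), -0.46 for DNAJB1 (2.0e-05), -0.43 for HERPUD1 (0.0014) and -0.96 for CHAC1 (0.0060). XBP1 responded by -0.00 in clone 5 and 0.58 in clone 4, and the other 3 rose in both clones. For TNFRSF10D, the TRAIL decoy receptor gene, the difference was -0.69 (edgeR adjusted p = 7.0e-04), and for MAT2A, the S-adenosylmethionine synthetase gene, -0.31 (0.0016), both with falls in each clone.

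The glucocorticoid-responsive genes differed in opposite directions, TSC22D3 by -0.73 (edgeR adjusted p = 5.9e-04) and SGK1 by 0.65 (0.0079). SGK1 responded by 0.37 in clone 5 and -0.28 in clone 4. The adhesion gene NCAM2 had a fitted difference of -5.84 (edgeR adjusted p = 0.0013) and the guidance gene SEMA3D one of -2.73 (0.0265). These fits rest on few reads in clone 5, 0 with HyT36 and 21 with DMSO for NCAM2, and 3 and 22 for SEMA3D.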

How the results depend on the processing

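The 1219 genes called in clone 5 became 37 against a fold of 1.2, and 756 to 1618 when each of the 12 libraries was left out in turn, lowest without clone 5 DMSO replicate 1. Under the other alternatives the count was within 1.5 times. For the difference of responses, 45 genes became 169 without a filter on low counts, 12 with limma-voom, 7 against a fold of 1.2 and 269 with the epithelial covariate, and 25 to 140 without single libraries (140 without clone 4 DMSO replicate 1). Of 119 called named genes, 75 held under every alternative but the fold of 1.2, which 21 also passed, and 29 were lost with the epithelial covariate. Only CLDN7 changed sign with a call, to 1.10 with that covariate. The cause of these moves was not tested.

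Deviations from the group means had correlations of -0.03, -0.04 and -0.01 between same-numbered HyT36 and DMSO libraries. These values show no shared replicate effect, but cannot settle whether same-numbered samples were handled together. With the replicate block 1136 genes were called, 454 up and 682 down, and 60 for the difference. The block lost 10 of the 119 named calls, among them TXNIP (edgeR adjusted p = 0.092), GATA3, SCUBE2, NEBL and PLK2. The depth limits low genes: under about 1 CPM a change rests on few reads per library.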

Other observations

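Further gene lists had 0 to 2 calls each in clone 5, beside 3.35% rises and 4.83% falls over all genes tested. Of 42 autophagy and lysosome genes 2 rose and 0 fell: FLCN and FNIP1, which encode partners in nutrient sensing at the lysosome, at log2 fold changes of 0.30 ± 0.07 and 0.29 ± 0.08 (SE). FLCN did not pass with the epithelial covariate (edgeR adjusted p = 0.13) and FNIP1 did not without DMSO replicate 3 (0.055). Of 33 hypoxia and glycolysis genes 0 rose and 2 fell, the glucose transporter gene SLC2A1 (-0.19 ± 0.04) and the glycolytic regulator gene PFKFB3 (-0.20 ± 0.05), and neither passed with the covariate or without some clone 5 libraries (DMSO replicate 3 for SLC2A1, edgeR adjusted p = 0.057; HyT36 replicate 3 or DMSO replicate 2 for PFKFB3, 0.053 and 0.065). Of 38 nuclear-encoded respiratory chain genes NDUFS1 rose and 0 fell, and NDUFS1 did not pass without HyT36 replicate 2 (edgeR adjusted p = 0.073) or with the covariate (0.21). Of 29 interferon-response genes IFIT5 fell, and of 19 NF-kB targets IER3 fell, with 0 rises in either list. IFIT5 did not pass without HyT36 replicate 1 or DMSO replicate 1 or 3 (edgeR adjusted p = 0.060 to 0.22), and IER3 did not without HyT36 replicate 3 (0.081) or with the covariate (0.15). With the covariate 7 interferon-response genes rose and 1 fell (median log2 fold change 0.74, against -0.08 without it), and 2 NF-kB targets rose and 0 fell. Of 24 replication-dependent histone genes 0 passed with edgeR (1 at an unadjusted p under 0.05), and 0 with DESeq2 or limma-voom.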
